A study of Mus musculus with 6 samples.

Results

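The comparison was that of BFU-E (burst-forming units, erythroid), early red cell progenitors, treated with dexamethasone and GW7647 together, against untreated BFU-E. Its members were the genes that passed an expression filter on raw counts in the 4 libraries compared, at least 10 counts in about 2 of them at the median depth, and 13710 of 37620 genes did so. The cells came from fetal livers of 129/SvImJ mouse embryos at stage E14.5. Per the labels, cells with CD34, CD41, CD16/32, Sca-1 or a lineage marker were removed, c-kit was required, and among the rest the 10% with the least CD71 were taken. The culture medium, free of serum, contained erythropoietin (2 U/mL), IGF-1 (40 ng/mL) and stem cell factor (100 ng/mL). The treated group received 100 nM dexamethasone (Dex) and 10 µM GW7647, and the untreated group neither drug. A group with 100 nM Dex alone was used for the difference that GW7647 made, and no group had GW7647 alone. Each group had 2 libraries. The labels give 12 h of treatment, the headers of the table that holds the Dex columns carry 36 h, and nothing says whether the untreated cells went through culture, so culture and drugs cannot be told apart. Nothing states that the libraries of a group came from separate embryos or cultures, so p-values measure only the spread between these libraries.

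Dex activates the glucocorticoid receptor, which leaves its chaperones when it binds a ligand, enters the nucleus and binds palindromic elements in DNA. GW7647 is a synthetic agonist of PPARα, a nuclear receptor for fatty acids that pairs with RXR, binds direct repeats and is known for driving fatty acid oxidation in liver. Glucocorticoids are known to prolong the self-renewal of BFU-E, which otherwise divide and mature into hemoglobin-making cells.

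The untreated libraries held 37577414 and 39791302 counts, and those with both drugs 46716806 and 35970286. The 2 Dex libraries held 54174801 and 45058773. Pearson correlations of log2 counts across genes were 0.99562 to 0.99625 within groups (genes are not independent replicates). Replicates differed by more than sampling noise, with a chi-square per degree of freedom of 6.31 for untreated, 14.9 for Dex and 3.04 for Dex plus GW7647. That value was highest for Dex but grows with depth, and the correlation was lowest for untreated (0.99562, beside 0.99597 for Dex). All 12 erythroid identity markers on the list passed the filter. Ly6a, the gene of the depleted Sca-1, had 1 or 2 counts in each of the 4 libraries compared. Not all depleted markers were absent, since Cd34 stood at 490.8 and 552.7 normalized counts in untreated libraries. In all, 8 of 12 listed genes of the sort, Kit among them, averaged at least 10 normalized counts. Globin genes took 6.48% and 7.15% of counts in untreated libraries and 2.82% and 2.75% with both drugs, and mitochondrial transcripts took between 2.46% and 2.88% in these 4. In the Dex libraries mitochondrial transcripts took 1.72% in replicate 1 and 2.71% in replicate 2. Values below are normalized counts, that is counts scaled by library size and composition to 1 common depth, and differences are log2 ± SE. A gene was called at an adjusted p under 0.05 (edgeR quasi-likelihood test, Benjamini-Hochberg over 13710 genes).

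With both drugs, 7013 genes (51.2%) were called, 3497 higher (25.5%) and 3516 lower (25.6%). The counts of list members below are to be set beside these shares. They include members that passed the filter through 1 group only, whose number is given for each list. The filter favours the direction of such members, so their calls are a description, with no test. Large falls outnumbered large rises, since 1256 genes (9.16%) were at least 2-fold lower and 477 (3.48%) at least 2-fold higher. Among called genes 2217 of the rises and 1383 of the falls were under 0.5 on the log2 scale. The median difference of all genes was 0.02, with quartiles of -0.27 and 0.24. The 2 groups did not overlap in 76.9% of all genes, 5496 higher and 5045 lower with both drugs. A lack of overlap in a gene below is to be set beside that share, as it is common here. Scaling by total counts moved that median up by 0.117 and gave 5469 genes higher and 2701 lower, so 66.9% of calls were then higher. These are bulk libraries, in which fewer cells of a type and less RNA per cell cannot be told apart.

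**Figure D1:**
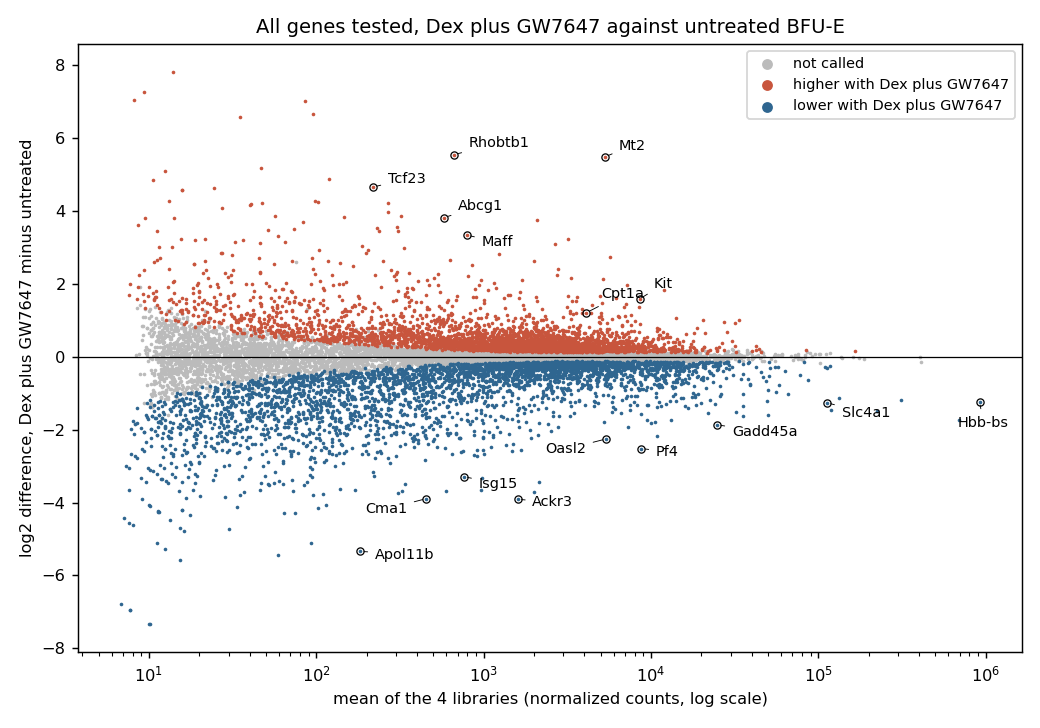
Log2 difference, Dex plus GW7647 minus untreated, against the mean normalized count of the 4 libraries on a log axis. Each point is 1 of 13710 genes, red if called higher (3497), blue if called lower (3516) and grey if not called. Mt2 (5.48) and Tcf23 (4.66) stand far above 0 and Apol11b (-5.34) far below it, and Hbb-bs, at the right end, lies at -1.23.

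The genes with the largest rises were of mixed function. Trnp1, which encodes a nuclear protein, had 3 counts in the untreated libraries together and 373 with both drugs, a ratio of 107 (95% interval 36.4 to 522, counting error only). It passed the filter through the treated libraries only, and the Dex libraries together held 851 counts. Rhobtb1 stood at 28.08 and 27.69 in untreated libraries and at 1268 and 1350 with both drugs. Its groups lay far apart (log2 5.55 ± 0.11, edgeR adjusted p = 2.05e-09). Next were Mt2, Adam33, Tcf23, A930033H14Rik, Il1rl2 (the interleukin 36 receptor), Slc26a9 (an anion transporter), Mgarp, Apoa1 and Tmem51, whose differences ran from 5.48 down to 3.86. Of these, Adam33, A930033H14Rik, Il1rl2 and Apoa1 also passed the filter through the treated libraries only, as not both untreated libraries reached its minimum. Their differences are given as a description, with no test.

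The largest falls were led by D030025P21Rik and Apol11b, an apolipoprotein L gene. Apol11b stood at 366.3 and 349.6 in untreated libraries and at 5.415 and 12.99 with both drugs (log2 -5.34). Both genes passed the filter through the untreated libraries only, so their differences are given as a description, with no test. Ackr3, an atypical chemokine receptor that scavenges CXCL12, stood at 3043 and 2972 untreated and at 198.6 and 201.9 with both drugs. The groups of Ackr3 did not overlap (log2 -3.91 ± 0.09, edgeR adjusted p = 2.98e-09). Of the other genes in this set, Tpsg1 and Cma1 are mast cell proteases, Fcnb is a ficolin of myeloid cells, Maob degrades amines, Oxtr is the oxytocin receptor, Sfrp4 binds Wnt proteins and Fabp4 carries fatty acids. Together with Prss50 and Serinc2 their log2 differences ran from -5.12 to -3.73. Maob, Tpsg1, Oxtr, Sfrp4, Prss50 and Fcnb also passed the filter through the untreated libraries only, as not both treated libraries reached its minimum. Their differences are likewise a description, with no test.

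The receptors themselves were not higher. Nr3c1, which encodes the glucocorticoid receptor, stood at 2780 and 2761 in untreated libraries and at 2518 and 2600 with both drugs. The treated libraries were lower, but the difference was not called (log2 -0.12 ± 0.05, edgeR adjusted p = 0.106), and it was called when only the 4 libraries were fitted (adjusted p = 0.0315) or without either Dex library (0.0497 and 0.0316). Ppara, the receptor of GW7647, had 1 count over the untreated libraries and 1 over those with both drugs, and did not pass the filter. Ppard, a related fatty acid receptor, fell by 0.31 on the log2 scale from 2404 and 2450 to 1945 and 1967. Rxra, the partner of both PPARs, fell from 127 and 151.1 to 72.2 and 69.66 (log2 -0.97 ± 0.17, edgeR adjusted p = 0.00111). Of 22 listed nuclear receptors and coregulators 19 were measured, meaning a mean of at least 10 normalized counts. Of these, 2 were higher (10.5%, beside 25.5% of all genes) and 8 lower (42.1%, beside 25.6%), with a median of -0.12. Under total count scaling 5 were higher. Ncoa3, a p160 coactivator, fell by 1.12, and Ncoa2 and the corepressor Nrip1 fell by 0.35 and 0.34.

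Of 14 chaperones of steroid receptors, 5 were higher (35.7%, beside 25.5% of all genes) and 2 lower (14.3%, beside 25.6%). Fkbp5, a co-chaperone and a classic receptor target, stood at 1713 and 1765 untreated and at 5457 and 5433 with both drugs. Its rise was 3.13-fold (log2 1.65 ± 0.05, edgeR adjusted p = 8.76e-09), and its difference from the Dex libraries, at 5396 and 5280, was not called (0.03 ± 0.04). Hsph1, a large heat shock protein, and St13, a co-chaperone of Hsp70, rose by 0.28 and 0.15. Without either untreated library 3 members were higher, and 2 without either library with both drugs. The call of St13 was lost without untreated replicate 1 or either library with both drugs, and the 2 lower members became 1 or 0 without any 1 of the 4 libraries.

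Glucocorticoid receptor targets went both ways. Of 28 measured (of 32), 13 were higher (46.4%) and 11 lower (39.3%), with a median of 0.05 beside 0.02 over all genes. Mt2, a metal-binding metallothionein, stood at 207.6 and 255 in untreated libraries and at 10810 and 9891 with both drugs. This was a 44.7-fold rise with no overlap (log2 5.48 ± 0.09, edgeR adjusted p = 1.47e-09). Its neighbour gene Mt1 stood at 4834 and 5644 untreated and at 18510 and 18580 with both drugs (log2 1.82 ± 0.09). Ddit4, which restrains mTORC1 signalling, rose from 982.9 and 1000 to 2948 and 3254. Tsc22d3, the leucine zipper protein GILZ, rose from 717.9 and 760.4 to 1610 and 1570 (2.15-fold). Smaller rises were those of the clock gene Per1 (1.05), the mRNA decay factor Zfp36l2 (1.06) and the Krüppel-like factor Klf9 (0.45).

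Members of the same list that fell included Angptl4, a secreted inhibitor of lipoprotein lipase that PPARs also induce in other tissues. Angptl4 stood at 576.3 and 560.7 untreated and at 115.5 and 98 with both drugs, 5.29-fold lower with no overlap (log2 -2.40 ± 0.12, edgeR adjusted p = 1.54e-07). Against Dex alone, where 1380 of 13710 genes were called (10.1%), 296 higher (2.16%) and 1084 lower (7.91%), 10 of the 28 targets were lower with both drugs and 0 higher. At an unadjusted p under 0.05 edgeR gave 16 lower and 0 higher, and DESeq2 and limma-voom, adjusted, 9 and 11 lower and 0 higher. Tsc22d3 was among the 10 (-0.24 ± 0.05, edgeR adjusted p = 0.0201). Zfp36l2 was also lower than with Dex alone (-0.19 ± 0.04, edgeR adjusted p = 0.0237), while Mt1, Mt2, Per1 and Klf9 were not called. Without replicate 1 or 2 of Dex plus GW7647, 5 and 6 targets were lower, and 6 without Dex replicate 1 or with a replicate block. In each of these settings Tsc22d3 and Zfp36l2 were no longer called (edgeR adjusted p = 0.0526 and 0.06 with the block).

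A promoter is shown where the data bear on it. Mt1 is the target with a large rise whose promoter holds a match to a form of the palindromic glucocorticoid element, GNACA and TGTNC with any 3 bases between them, read on both strands. The 250 bases before its start site (chr8:94178839-94179088, plus strand, GRCm38.p6, RefSeq) follow, with the match in capitals, beginning 94 bases before the start.

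Mt1: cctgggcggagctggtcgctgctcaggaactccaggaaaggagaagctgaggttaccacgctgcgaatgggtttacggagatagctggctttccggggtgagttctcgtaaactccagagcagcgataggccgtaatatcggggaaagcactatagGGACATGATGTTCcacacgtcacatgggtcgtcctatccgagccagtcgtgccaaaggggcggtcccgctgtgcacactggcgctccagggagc

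Such a match lay in 127 of 32851 mouse promoters of this length (0.387%) and in 5 of 44 promoters of 27 listed targets (11.4%), those of Fam107a, Mt1, Sgk1 and Txnip. The 3 of these that were measured were higher with both drugs, and of the 20 measured targets without a match 7 were higher and 9 lower. A match is a description of letters, not of binding.

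Mitochondrial fatty acid oxidation genes were mostly higher. All 22 listed were measured, and 16 were higher (72.7%, beside 25.5% of all genes) and 1 lower, with a median of 0.38. Cpt1a, which loads fatty acids onto carnitine at the outer mitochondrial membrane, stood at 2493 and 2481 in untreated libraries, at 5889 and 5593 with both drugs and at 1974 and 2006 with Dex. Only the libraries with both drugs were high, and the groups did not overlap. Its rise over untreated was 2.31-fold (log2 1.21 ± 0.05, edgeR adjusted p = 4.74e-08), and over Dex 1.53 ± 0.05 (adjusted p = 2.42e-07). Hadh, which oxidizes hydroxyacyl-CoA in the matrix, stood at 1819 and 2079 untreated, 4631 and 4678 with both drugs and 1770 and 1763 with Dex. Its pattern was that of Cpt1a (2.39-fold over untreated, 2.64-fold over Dex, edgeR adjusted p = 1.86e-07 and 2.03e-06). Slc25a20, the carrier of acylcarnitines across the inner membrane, stood at 1197 and 1175 untreated, 2496 and 2618 with both drugs and 1473 and 1491 with Dex (1.11 ± 0.05 over untreated). It was higher than with Dex by 0.79 ± 0.05.

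Other members rose to a like level in the Dex libraries. Acaa2, the thiolase that closes a round of oxidation, stood at 2941 and 3173 untreated, 9477 and 9196 with both drugs and 8680 and 8073 with Dex. Its rise over untreated was 1.61 ± 0.06, and the difference from Dex was not called (0.16 ± 0.06, edgeR adjusted p = 0.112). Acadl, a long-chain acyl-CoA dehydrogenase, rose by 0.93 ± 0.06 and was likewise not called against Dex. In all, 5 of the 22 were higher than with Dex alone (beside 2.16% of all genes). They were Cpt1a, Hadh, Slc25a20 and, chosen after their values were seen, Eci2 and Etfdh. The median difference from Dex was 0.12 beside 0.0017 over all genes. The 5 became 8 without Dex replicate 1, and 4 without replicate 1 or 2 of Dex plus GW7647. The 1 lower member over untreated, the carnitine acetyltransferase gene Crat (chosen after its values were seen), was not called without untreated replicate 2 or without either library with both drugs.

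Of 43 other PPAR targets 26 were measured, 3 of them through 1 group only, and 13 were higher (50%) and 10 lower (38.5%). Plin2, the coat protein of lipid droplets, stood at 5505 and 5415 untreated, 8373 and 8239 with both drugs and 6762 and 6583 with Dex. It was highest with both drugs (0.61 ± 0.04 over untreated, 0.32 ± 0.04 over Dex, edgeR adjusted p = 2.94e-06 and 0.00159). Lpl, the lipase that frees fatty acids from lipoproteins, rose 4.33-fold from 335.8 and 385.4 to 1597 and 1524, with 1551 and 1531 in the Dex libraries. Fabp4 stood at 611.7 and 536.5 untreated and fell to 38.81 and 48.41 with both drugs, with 31.68 and 22.53 in the Dex libraries. Acot2, a mitochondrial acyl-CoA thioesterase chosen after its values were seen, fell by 1.61 from untreated and was higher than with Dex by 1.71, though its reads may be split with the near-identical Acot1. Pdk4, a widely used PPAR target, had 5 and 2 counts untreated and 9 and 6 with both drugs and did not pass the filter. The direct repeat that PPARs bind was searched as AGGNCA, any 1 base and AGGNCA, on both strands, and lay in 111 of 32851 promoters (0.338%). It was in 0 of the 18 promoters of fatty acid oxidation genes and in 1 of 40 promoters of other PPAR targets (2.5%), that of Fabp1, which was not measured.

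**Figure D2:**
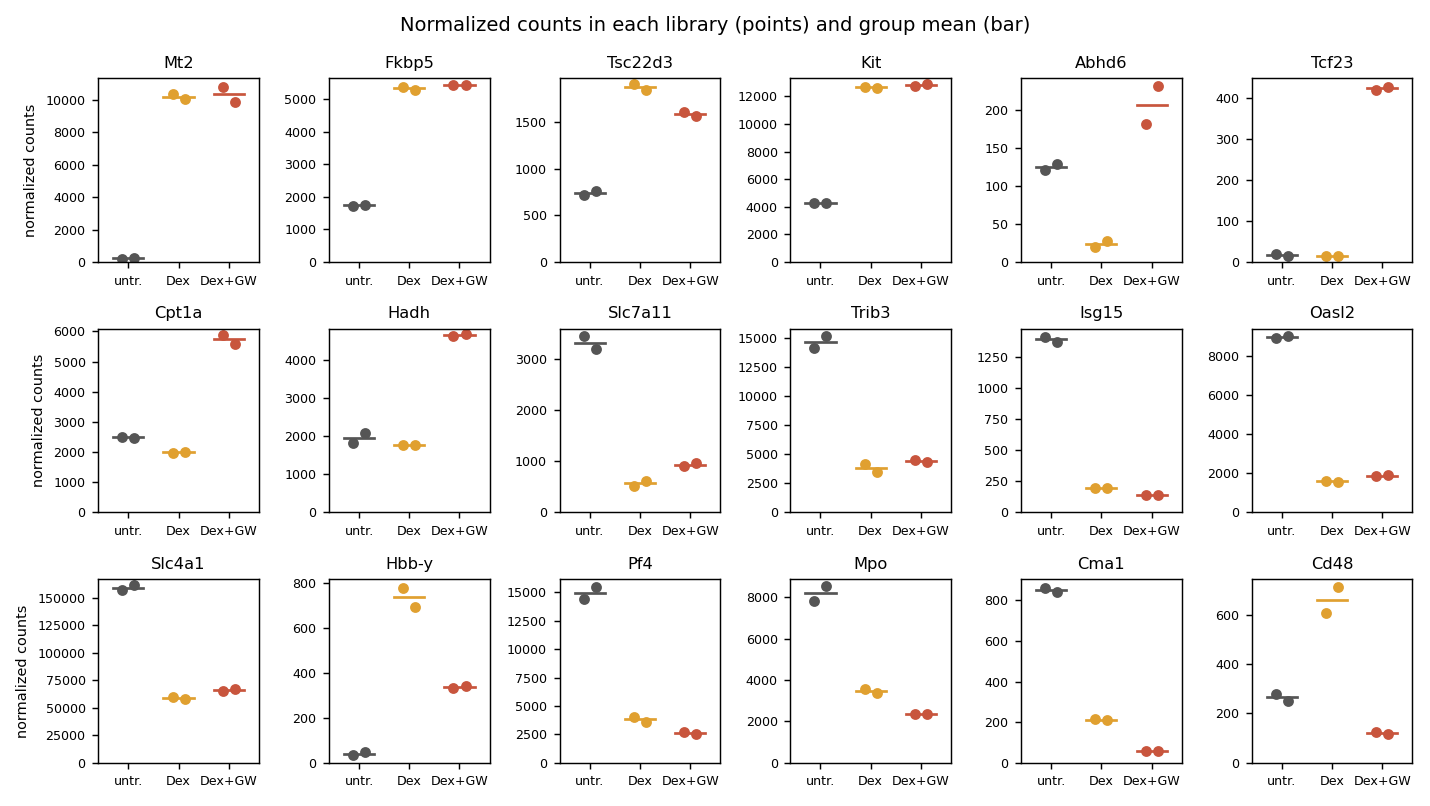
Normalized counts of 18 genes in each of the 6 libraries, on linear axes that start at 0. Points are libraries and bars are group means of 2 libraries, with untreated, Dex, and Dex plus GW7647 from left to right. Tcf23, Cpt1a and Hadh are high only with both drugs, and Mt2, Fkbp5 and Kit are equally high with Dex alone.

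Beyond these lists, the largest differences from Dex among genes that were also called over untreated included those of Tcf23, Abhd6, Cd48, Tpsb2 and Gdf3. Tcf23, a basic helix-loop-helix factor, stood at 18.31 and 15 untreated, 418.8 and 426.2 with both drugs and 13.91 and 15.02 with Dex. It was high only with both drugs (4.66 ± 0.17 over untreated, 4.86 ± 0.16 over Dex, edgeR adjusted p = 2.83e-08 and 3e-07). Abhd6, a lipase of monoacylglycerols, stood at 120.9 and 129.2 untreated, 182.3 and 231.4 with both drugs and 20.09 and 28.16 with Dex. Dex libraries were lowest and those with both drugs highest (3.10 ± 0.21 over Dex, edgeR adjusted p = 1.8e-05), and the rise over untreated of 0.72 ± 0.17 was not called without replicate 2 of Dex plus GW7647 (0.54).

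Cd48, an adhesion receptor of hematopoietic cells, stood at 279.6 and 250.4 untreated, 125.5 and 115.7 with both drugs and 607.4 and 712.5 with Dex. Its order was the reverse, lowest with both drugs and highest with Dex (-1.13 ± 0.13 from untreated, -2.44 ± 0.12 from Dex, edgeR adjusted p = 6.91e-05 and 3.85e-06). Gdf3, a ligand of the TGF-β family, had the same order, at 373.6 and 370.4, at 158.8 and 167.7, and at 623.6 and 685.3. The mast cell tryptase Tpsb2 did as well (-1.81 ± 0.21 from untreated, -2.41 ± 0.20 from Dex).

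Genes of red cell maturation were mostly lower with both drugs. Of 22 measured genes of the red cell membrane, 17 were lower (77.3%, beside 25.6% of all genes) and 2 higher (1 without any 1 of the 4 libraries), with a median of -0.30. Slc4a1, the anion exchanger band 3, stood at 156900 and 161800 untreated and at 65300 and 67530 with both drugs. It fell 2.40-fold with no overlap (log2 -1.26 ± 0.04, edgeR adjusted p = 2.5e-08). Dmtn, which bundles actin in the membrane skeleton, and Epb41, which ties the skeleton to the membrane, fell by 1.55 and 1.02. Of 19 erythroid transcription factors, 14 were lower (73.7%, beside 25.6% of all genes) and 2 higher (10.5%, beside 25.5%), with a median of -0.28. Hemgn, an erythroid nuclear protein, fell from 15940 and 15600 to 6098 and 6070, and Trim10 and Nfe2 fell by 1.15 and 0.73 on the log2 scale.

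The master regulators moved little. Gata1 stood at 11470 and 12350 untreated and at 10370 and 10350 with both drugs (log2 -0.20 ± 0.05, edgeR adjusted p = 0.00802), and Klf1 at 15360 and 16690 and at 14070 and 13810 (adjusted p = 0.0409). The treated libraries of both genes were lower with no overlap, but both calls were lost under total count scaling and without untreated replicate 2 or either library with both drugs, and that of Klf1 also with a replicate block. Gata2, Myb and Epor, the erythropoietin receptor, were not called (-0.01, -0.02 and 0.01).

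Of 7 measured globin genes (of 10 listed, where 3 names had no match), 5 were lower (71.4%, beside 25.6% of all genes). Another 1 was higher (14.3%, beside 25.5%), or 2 under total count scaling. Hbb-bs, an adult beta globin, stood at 1276000 and 1305000 untreated and at 545700 and 554000 with both drugs (log2 -1.23 ± 0.04), and Hbb-bt fell by 1.75. Reads of these 2 near-identical genes may be split between them. The embryonic globin Hbb-y went the other way, from 35.41 and 46.15 to 330.3 and 341.2, an 8.18-fold rise (log2 3.03 ± 0.15, edgeR adjusted p = 1.62e-07). With Dex alone Hbb-y stood at 777.4 and 693.7, so the libraries with both drugs lay between the other groups (-1.13 ± 0.10 from Dex, edgeR adjusted p = 7.57e-05).

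Heme genes were mostly lower. Of 20 measured genes 12 were lower (60%, beside 25.6% of all genes) and 1 higher (5%, beside 25.5%), with a median of -0.30. Under total count scaling 7 were higher. Hmox1, the oxygenase that breaks heme down, fell the most, from 11020 and 11960 to 3011 and 3017 (log2 -1.93 ± 0.06). Alas2, the rate-limiting enzyme of erythroid heme synthesis, stood at 73930 and 73310 untreated and at 37540 and 37360 with both drugs (log2 -0.98 ± 0.04), and the mitochondrial carrier gene Slc25a39 fell by 1.07. Iron genes were split, with 6 higher (42.9%) and 8 lower (57.1%) of 14. Aco1, the iron-sensing aconitase, rose by 1.43 from 2361 and 2450 to 6454 and 6488, while the transferrin receptor Tfrc and the mitochondrial iron importer Slc25a37 fell by 0.63 and 0.75. Without untreated replicate 1 or replicate 2 of Dex plus GW7647, 3 iron genes were higher.

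**Figure D3:**
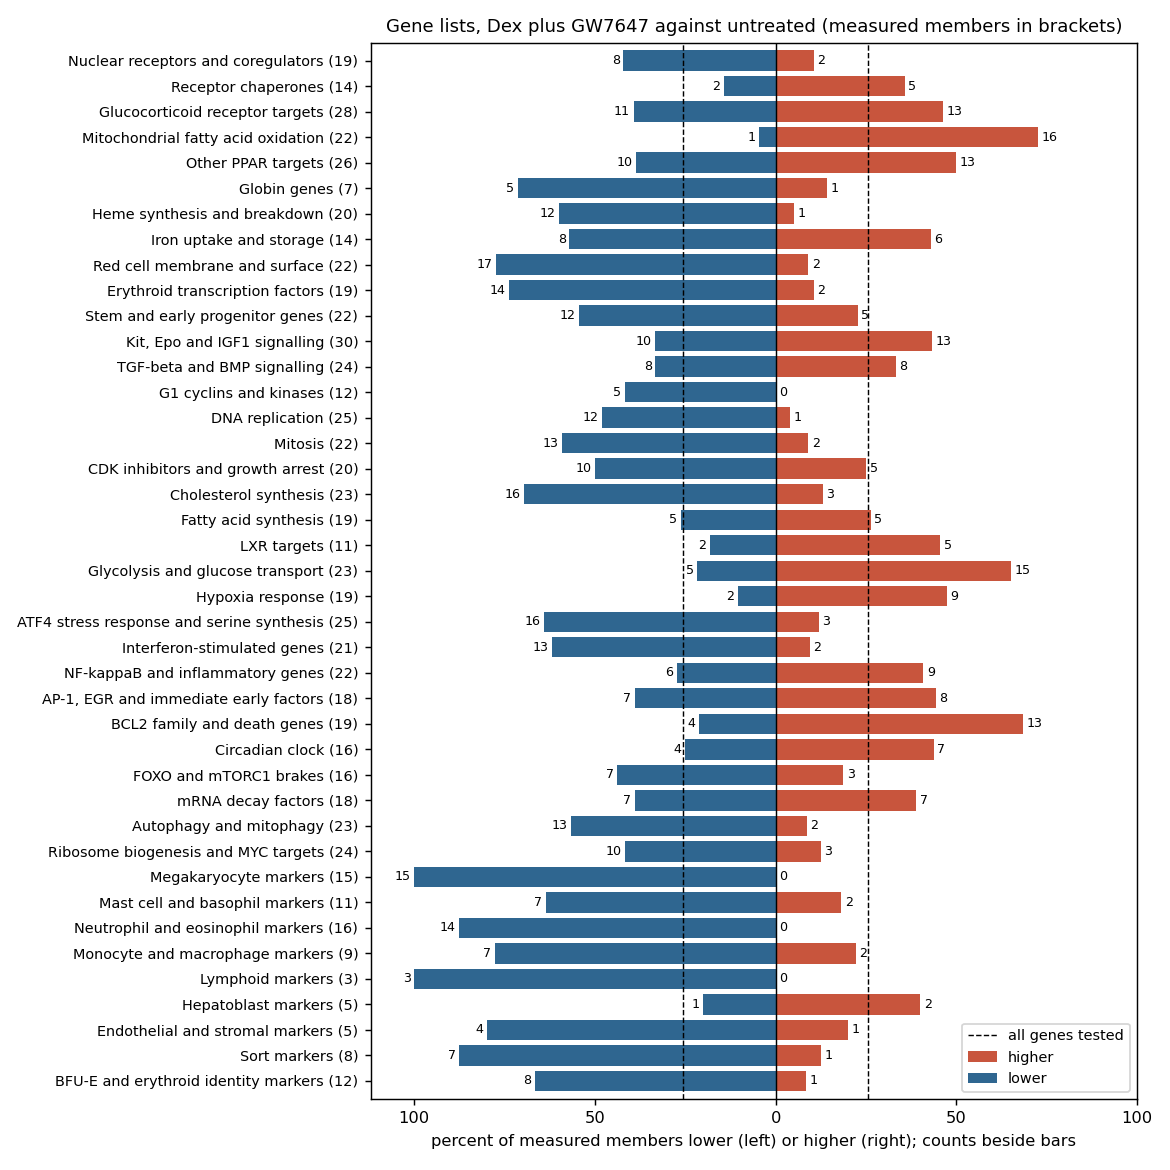
Share of measured members of each gene list called higher (red, right) or lower (blue, left) with Dex plus GW7647 against untreated, with counts beside the bars and the number measured in brackets. Dashed lines are the shares over all 13710 genes, 25.5% and 25.6%. Fatty acid oxidation, glycolysis and BCL2 family genes lie furthest to the right. On the left, megakaryocyte and lymphoid markers reach 100% of 15 and 3 measured, and neutrophil and eosinophil markers and sort markers 87.5%. Of these, 1 megakaryocyte, 2 lymphoid and 2 neutrophil and eosinophil markers were measured through 1 group only, which favours their direction.

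Among genes that sustain progenitors, Kit, the receptor for stem cell factor, stood at 4265 and 4301 untreated and at 12790 and 12880 with both drugs, a rise with no overlap (log2 1.58 ± 0.04, edgeR adjusted p = 7.21e-09), beside 12700 and 12640 with Dex. Of 30 measured genes of Kit, erythropoietin and IGF1 signalling, 13 were higher (43.3%, beside 25.5% of all genes) and 10 lower (33.3%, beside 25.6%), with a median of 0.07. Socs1, an inhibitor of JAK kinases, rose from 129.4 and 168.5 to 546.9 and 553.7 (log2 1.88 ± 0.12), and the kinase gene Pim1, a target of STAT5, fell by 1.11. Of 22 measured stem and early progenitor genes (1 through 1 group only), 12 were lower (54.5%) and 5 higher (22.7%). The TGF-β and BMP list had 8 higher and 8 lower of 24 (33.3% each, near the shares over all genes), 1 through 1 group only, and 5 higher without replicate 2 of Dex plus GW7647. The type I receptors Bmpr1a and Acvr1b rose by 1.49 and 1.39, and the coreceptor Tgfbr3 fell by 1.11. Against Dex alone 7 of the 24 were lower (beside 7.91% of all genes), and 4 without replicate 1 or 2 of Dex plus GW7647.

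Cell cycle genes were slightly lower. Of 25 DNA replication genes, 12 were lower (48%, beside 25.6% of all genes) and 1 higher (4%, beside 25.5%), with a median of -0.13 and none past 2-fold. Of 22 mitosis genes, 13 were lower (59.1%) and 2 higher (9.09%), with a median of -0.15. Mki67, a marker of dividing cells, stood at 75360 and 67540 untreated and at 54250 and 55030 with both drugs (log2 -0.39 ± 0.06, edgeR adjusted p = 0.000649). These counts rest on the scaling, since under total counts 4 replication genes were lower and 4 higher, and 4 mitosis genes were lower. They also fell to 7 replication genes without replicate 2 of Dex plus GW7647, and for mitosis to 8 without untreated replicate 2 and to 5 and 4 without replicate 1 and 2 of Dex plus GW7647, while the 2 higher mitosis genes became 1 or 0 without any 1 of the 4 libraries. Among 12 G1 cyclins and kinases, 5 were lower (41.7%) and 0 higher by edgeR, also at an unadjusted p under 0.05 and with DESeq2 and limma-voom. Total count scaling gave 1 higher. Ccne1, E2f2 and Ccnd3 fell by 0.70, 0.82 and 0.62, Ccnd1 fell from 159.9 and 155.8 to 56.86 and 56.67 (log2 -1.47 ± 0.16), and Ccnd2 was not called.

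Of 20 measured inhibitors of division, 10 were lower (50%, beside 25.6% of all genes). The 5 that were higher (25%) were near the share of all genes, 25.5%. Gadd45a, a stress-induced inhibitor, fell from 39780 and 38630 to 10410 and 11050 (log2 -1.87 ± 0.05, edgeR adjusted p = 5.94e-09), and Mxi1, an antagonist of MYC, fell by 0.85. Ccng1, a cyclin that p53 induces, rose by 0.92. Cdkn1a, the inhibitor p21, stood at 18220 and 18870 untreated and at 16900 and 17580 with both drugs and was not called (adjusted p = 0.0848 by edgeR), but was called lower by DESeq2, with the 4 libraries alone and without Dex replicate 2 (-0.12 in each). Cdkn1c, the inhibitor p57, stood at 28.08 and 30 untreated, 49.64 and 40.14 with both drugs and 111.3 and 100.4 with Dex. Both drugs gave a level between the other groups (0.64 ± 0.23 over untreated, edgeR adjusted p = 0.0402, and -1.23 ± 0.18 from Dex, adjusted p = 0.00193). The rise over untreated was lost with DESeq2, limma-voom, the 4 libraries alone, a replicate block, and without either untreated library or replicate 1 of Dex plus GW7647. The count of 5 higher became 3 without untreated replicate 2 or replicate 1 of Dex plus GW7647.

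Genes of the ATF4 pathway, which cells use under amino acid shortage or misfolded protein to raise amino acid supply, were mostly lower. Exceptions were Psph (0.44), Asns (0.19) and Shmt1 (0.16), which were higher. Phgdh, Psat1, Shmt2, Aldh18a1, Slc7a1 and Slc7a3 were not called. Of 25 genes, 16 were lower (64%) and 3 higher, with a median of -0.38. Under total count scaling 6 were higher, and without replicate 1 of Dex plus GW7647 1 was. Ddit3, the stress factor CHOP, stood at 13230 and 12960 untreated and at 4320 and 4565 with both drugs (log2 -1.56 ± 0.05, edgeR adjusted p = 1.35e-08). Trib3, a pseudokinase that ATF4 induces, stood at 14100 and 15160 and at 4484 and 4345 (log2 -1.73 ± 0.08). Slc7a11, the cystine importer, stood at 3453 and 3201 untreated, 916.1 and 958.7 with both drugs and 520.1 and 615.8 with Dex. It fell 3.55-fold from untreated but was above Dex (0.73 ± 0.08, edgeR adjusted p = 0.000557).

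A difference from Dex was called in part of the list. Slc7a11 lay between the other groups, but Asns and Psph were above both. Against Dex, 14 of 25 members were higher with both drugs (56%, beside 2.16% of all genes) and 0 lower by edgeR. DESeq2 and limma-voom gave 15 and 14 higher and 0 lower, and edgeR at an unadjusted p under 0.05 gave 16 and 1. The median difference from Dex was 0.20, and the medians over the same untreated libraries were -0.38 with both drugs and -0.71 with Dex. Chosen after their values were seen, Atf4 itself was higher than with Dex by 0.20 and the amino acid carrier Slc7a3 by 1.94, while Ddit3 was not called (-0.01). The 14 became 5 and 4 without replicate 1 and 2 of Dex plus GW7647, 9 without Dex replicate 2 and 9 with a replicate block.

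The promoters of Slc7a11 and Chac1, which encodes an enzyme that degrades glutathione, are shown because both carry the letters TGATGNAA, the core of the element that ATF4 and its partners bind, read on both strands. The windows are the 250 bases before the start, chr3:50443614-50443863 on the minus strand and chr2:119350992-119351241 on the plus strand (GRCm38.p6, RefSeq), with matches in capitals.

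Slc7a11: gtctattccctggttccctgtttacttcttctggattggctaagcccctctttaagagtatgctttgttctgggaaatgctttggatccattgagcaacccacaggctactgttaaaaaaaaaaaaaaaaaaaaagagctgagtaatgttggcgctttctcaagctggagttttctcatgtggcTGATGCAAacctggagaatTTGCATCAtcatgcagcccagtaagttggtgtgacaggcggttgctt
Chac1: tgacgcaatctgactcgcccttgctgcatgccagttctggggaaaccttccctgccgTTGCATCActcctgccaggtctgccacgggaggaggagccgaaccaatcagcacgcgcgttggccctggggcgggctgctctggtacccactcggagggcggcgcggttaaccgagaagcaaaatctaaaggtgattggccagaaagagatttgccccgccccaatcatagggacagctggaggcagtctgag

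The match lay in 1134 of 32851 promoters (3.45%) and in 6 of 27 promoters of 23 list members (22.2%), those of Asns, Chac1, Nupr1, Pck2, Slc7a11 and Vldlr. Of these 6 genes 5 were lower with both drugs and 1 higher, and of the 17 members without a match 10 were lower and 2 higher.

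Interferon-stimulated genes had the lowest median among the lists of pathways, -1.36 beside 0.02 over all genes. Of 21 measured (of 27, with 1 through 1 group only), 13 were lower (61.9%), 12 of them at least 2-fold, and 2 higher. Isg15, a ubiquitin-like protein of the interferon response, stood at 1409 and 1366 in untreated libraries and at 142.6 and 140.5 with both drugs. It fell 9.79-fold with no overlap (log2 -3.29 ± 0.08, edgeR adjusted p = 4.78e-09). Oasl2, an oligoadenylate synthetase-like protein, stood at 8910 and 8988 and at 1866 and 1889 (log2 -2.25 ± 0.05). Rsad2, the antiviral enzyme viperin, stood at 2534 and 2555 and at 401.6 and 442.8 (log2 -2.60 ± 0.07). In the Dex libraries Isg15 stood at 195.5 and 192.4, Oasl2 at 1608 and 1549 and Rsad2 at 290.6 and 322. Over all genes 7.91% were lower with both drugs than with Dex and 2.16% higher. Against Dex, 5 members were lower and 2 higher with both drugs, Isg15 among the former (-0.45 ± 0.09) and Oasl2 and Rsad2 the latter (0.25 and 0.46), and without either library with both drugs 2 were lower and the calls of Isg15 and Oasl2 were lost, as was that of Rsad2 without replicate 2.

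Both Isg15 and Rsad2 have a promoter with GAAA, any 2 bases and GAAA, the repeat that interferon regulatory factors bind, read on both strands, and they are shown for that reason (chr4:156200819-156201068 and chr12:26456453-26456702, both on the minus strand, GRCm38.p6, RefSeq, 250 bases before the start, matches in capitals). In Isg15 3 overlapping matches form 1 run of capitals.

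Isg15: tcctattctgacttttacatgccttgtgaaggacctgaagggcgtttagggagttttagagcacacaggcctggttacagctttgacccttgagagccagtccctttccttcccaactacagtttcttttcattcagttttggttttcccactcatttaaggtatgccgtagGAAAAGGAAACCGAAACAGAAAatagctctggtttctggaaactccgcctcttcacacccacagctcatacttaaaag
Rsad2: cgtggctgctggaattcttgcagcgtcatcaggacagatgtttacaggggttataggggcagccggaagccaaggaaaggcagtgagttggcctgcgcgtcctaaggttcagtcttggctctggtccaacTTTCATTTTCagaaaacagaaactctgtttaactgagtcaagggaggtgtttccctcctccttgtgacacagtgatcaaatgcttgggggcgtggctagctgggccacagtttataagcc

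The repeat lay in 978 of 32851 promoters (2.98%) and in 8 of 23 promoters of 20 list members (34.8%). Of the 7 measured genes with a match 5 were lower and 1 higher, and of the 11 measured without one 6 were lower and 1 higher.

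**Figure D4:**
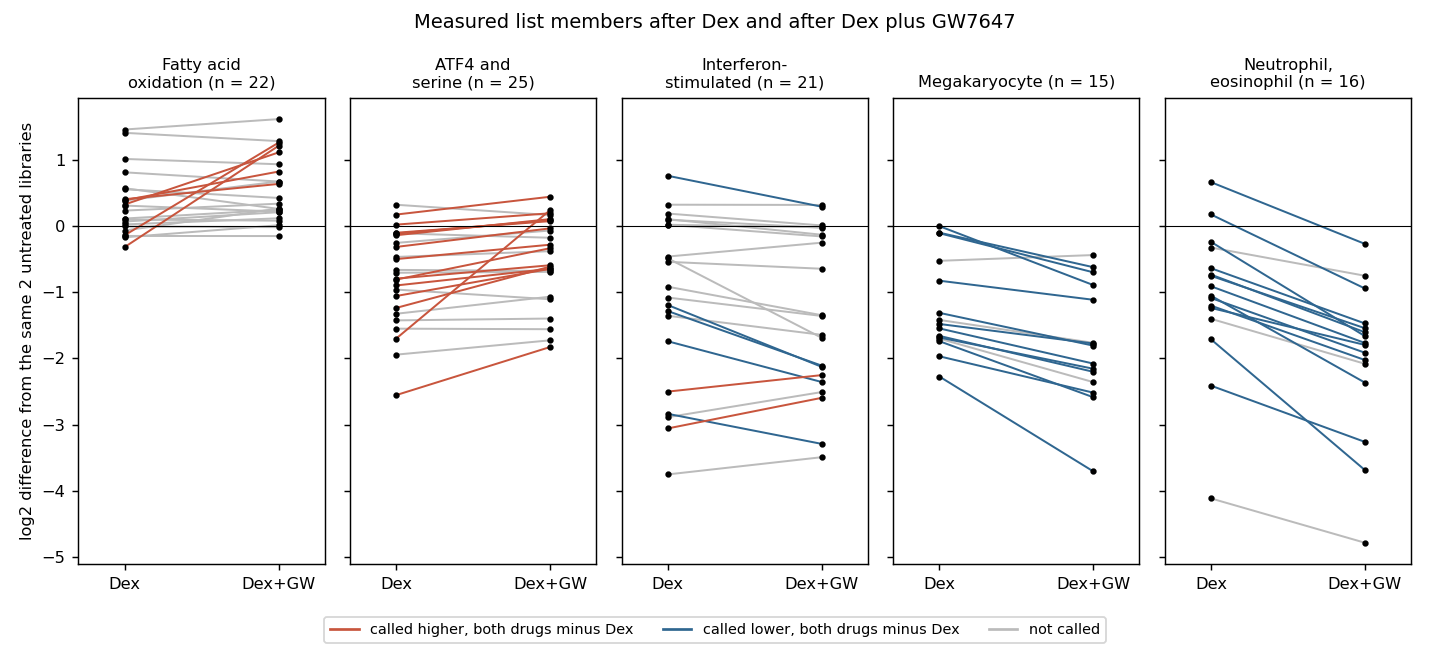
Log2 differences of measured members of 5 lists after Dex (left) and after Dex plus GW7647 (right), each from the same 2 untreated libraries. A line joins the points of 1 gene and is red or blue where the difference between both drugs and Dex was called. Red lines are seen in fatty acid oxidation (5) and the ATF4 list (14), and blue lines in megakaryocyte (12) and neutrophil and eosinophil markers (13). Interferon-stimulated genes have both, 2 red and 5 blue.

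Glycolysis genes were mostly higher and cholesterol synthesis genes mostly lower. Of 23 measured glycolysis and glucose transport genes, 15 were higher (65.2%, beside 25.5% of all genes) and 5 lower (21.7%, beside 25.6%), with a median of 0.28. Hk1, which traps glucose in the cell, rose 2.00-fold from 22760 and 22280 to 44630 and 45480, and Pfkfb4 rose by 1.17, while the glucose transporter Slc2a1 fell by 0.92. Of 23 cholesterol synthesis genes, 16 were lower (69.6%) and 3 higher (13%), with a median of -0.31 and none past 2-fold, and 1 was higher without untreated replicate 1 or either library with both drugs. Fdps, which makes farnesyl diphosphate, fell from 23880 and 24410 to 15850 and 16410 (log2 -0.58 ± 0.05). Fatty acid synthesis had 5 higher and 5 lower of 19 (26.3% each, about the shares over all genes), but 9 and 1 under total count scaling. Without untreated replicate 2 its lower members were 2, and 0 and 3 without replicate 1 and 2 of Dex plus GW7647, where replicate 1 also left 3 higher. Of 11 measured LXR targets (1 through 1 group only) 5 were higher (45.5%) and 2 lower (18.2%). Abcg1, a sterol exporter, stood at 69.6 and 83.07 untreated, 1073 and 1083 with both drugs and 1546 and 1398 with Dex. Its rise was 14.1-fold (log2 3.81 ± 0.11, edgeR adjusted p = 7.21e-09), and it was lower than with Dex by 0.45.

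Inflammatory genes were 9 higher (40.9%, beside 25.5% of all genes) and 6 lower (27.3%, beside 25.6%) of 22 measured, 4 of them through 1 group only. Il1rl1, the interleukin 33 receptor, stood at 982.9 and 948.4 untreated, 4592 and 4455 with both drugs and 6898 and 7380 with Dex. It rose 4.69-fold (log2 2.23 ± 0.06) and was below Dex by 0.66 ± 0.05 (edgeR adjusted p = 4.39e-05 against Dex). Relb, an NF-κB subunit, fell by 1.34. Against Dex 8 of the 22 were lower (beside 7.91% of all genes), and 5 without replicate 1 of Dex plus GW7647.

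Megakaryocyte markers and most neutrophil and eosinophil markers were lower with both drugs than in untreated libraries, and most of both lists were also lower than with Dex. All 15 megakaryocyte markers were measured, 1 through 1 group only, and all 15 were lower by edgeR, DESeq2 and limma-voom, with a median of -1.81, and 12 of 15 were lower than with Dex (80%, beside 7.91% of all genes). The summed level of that list was 63110 to 65180 in untreated libraries and 24590 to 24900 with both drugs. Pf4, platelet factor 4, stood at 14400 and 15480 untreated, 2698 and 2514 with both drugs and 4039 and 3588 with Dex. It was lowest with both drugs (log2 -2.52 ± 0.07 from untreated, -0.55 ± 0.07 from Dex, edgeR adjusted p = 7.66e-09 and 0.000825). Ppbp, another platelet chemokine, fell by 3.71 on the log2 scale from 3726 and 3754 to 265.3 and 311.7. Without replicate 1 and 2 of Dex plus GW7647, 6 and 8 of the 15 were lower than with Dex.

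Of 16 measured neutrophil and eosinophil markers (of 18, 2 through 1 group only), 14 were lower and 0 higher by edgeR, DESeq2 and limma-voom (15 and 0 at an unadjusted p under 0.05), with a median of -1.78 and a summed level of 16260 to 17300 untreated and 4789 to 4834 with both drugs. Against Dex, 13 of them were lower (beside 7.91% of all genes). Mpo, myeloperoxidase, stood at 7824 and 8547 untreated, 2353 and 2359 with both drugs and 3578 and 3357 with Dex. It was lowest with both drugs and highest in untreated libraries, without overlap (log2 -1.80 ± 0.06 from untreated, -0.56 ± 0.06 from Dex). The granule proteases Ctsg and Prtn3 were lower as well (log2 -2.03 and -1.92). Epx, the eosinophil peroxidase, chosen after its values were seen, had 53 counts untreated and 2 with both drugs. It passed the filter through the untreated libraries only, so its ratio of 30.7 is a description, with no test (95% interval 8.1 to 260, counting error only).

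Mast cell and basophil markers were mixed. Of 11 measured (of 15, 2 through 1 group only), 7 were lower (63.6%) and 2 higher (18.2%), and 9 were lower than with Dex (beside 7.91% of all genes). Cma1, mast cell chymase, stood at 863.2 and 841.1 untreated, 57.76 and 56.67 with both drugs and 214.8 and 208.4 with Dex (log2 -3.89 ± 0.11 from untreated, -1.88 ± 0.12 from Dex). Cpa3, a carboxypeptidase of mast cell granules, fell 5.90-fold from 2853 and 2889 to 483.8 and 490. Mcpt4, another chymase chosen after its values were seen, had 34 counts untreated and 0 with both drugs (lower 95% limit of the ratio 10.1, counting error only). It passed the filter through the untreated libraries only, so this is a description, with no test. The 2 higher members were Il1rl1 and, chosen after its values were seen, the histamine enzyme gene Hdc (1.53). With Gata2 they are also expressed by other progenitors, and the summed level of the list was 12430 to 12700 untreated and 15300 to 15840 with both drugs. Fewer markers were lower than with Dex without replicate 1 and 2 of Dex plus GW7647, 7 and 6 for mast cells and 9 and 11 for neutrophils.

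Monocyte and macrophage markers had 9 of 18 measured, 2 of them through 1 group only, 7 lower and 2 higher, of which 1 was still called without any 1 of the 4 libraries. Lyz2, lysozyme, fell 6.13-fold from 1305 and 1223 to 205.8 and 206.6. Spi1, the myeloid factor PU.1, rose from 634.9 and 686.5 to 1403 and 1410 (log2 1.09 ± 0.07) and was below Dex, at 2749 and 2447, by 0.89 ± 0.07 (edgeR adjusted p = 3.63e-05). The summed level of the list went from a range of 2970 to 2990 to one of 2025 to 2033, and C1qa was at 0. Lymphoid markers had 3 of 15 measured, and all 3 were lower. Of these 3, 2 were measured through 1 group only, which favours their direction. The summed levels of the list were 204.2 to 245.4 untreated and 46.03 to 57.85 with both drugs, with Cd3d and Ms4a1 at 0. Hepatoblast markers had 5 of 14 measured, 2 higher and 1 lower. Of these 5, 3 were measured through 1 group only, the higher Apoa1 among them. Ttr and Serpina1a were at 0, and summed levels were 145.4 to 170.9 untreated and 243.2 to 259 with both drugs. Endothelial and stromal markers had 5 of 15 measured, 4 lower and 1 higher, with sums of 1221 to 1352 and 952.8 to 993.7. The shares lower were 77.8% of measured monocyte, 100% of lymphoid, 20% of hepatoblast and 80% of endothelial and stromal markers. Those higher were 22.2%, 0%, 40% and 20%. Over all genes 25.6% were lower and 25.5% higher. The part of other cells in the results above was not tested.

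Genes of the sort gate other than Kit were lower too. Cd34 fell from 490.8 and 552.7 to 165.2 and 181.8 (log2 -1.59 ± 0.11). In all, 7 of 8 measured sort markers were lower (87.5%, beside 25.6% of all genes), Kit being the 1 that rose. These values are RNA levels, and the sort was on protein.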

How the data were processed

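RNA was sequenced from 2 untreated libraries, 2 with Dex plus GW7647 and 2 with Dex. Per the submitters' processing notes, the authors used TopHat 1.4.1, HTSeq and DESeq, and the mouse builds mm9 and NCBIM37. The deposited values used here are raw counts per Ensembl gene. Whether counting used strand is not given in the sources used here. The authors' fold changes and p-values were not used.

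Counts of the 6 libraries were fitted with edgeR 4.0.16 (R 4.3.3) by the quasi-likelihood test with TMM scaling and 3 residual degrees of freedom. Genes passed filterByExpr (minimum count 10) on the 4 libraries compared, and the 13710 genes that did held at least 99.956% of the counts of each library. p-values were adjusted by Benjamini-Hochberg, with a threshold of 0.05. Normalized counts are counts over the TMM-scaled library size, times its mean of 43380191. SE is the difference over the square root of F. Gene names matched 32897 of 37620 IDs (87.45%). The steps were tested on simulated data. Depth was 35970286 to 54174801 counts per library.

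Named genes outside a fixed set had to be called and average 50 normalized counts or more. They were the 12 largest rises, the 12 largest falls and up to 3 members of each list with the smallest p. The 6 largest differences from Dex called in both comparisons were added. The fixed set was named whatever its level or call. The gene lists and the comparison were chosen with earlier results of these data known. Intervals cover counting error only. Alternatives were RLE and total count scaling, other filters, DESeq2 1.42.0, limma-voom (limma 3.58.1), the 4 libraries alone, replicate blocks and leaving out each library. Promoters came from RefSeq (GRCm38.p6), a different build from that of the counts. Some genes that the naming rule picks are not reported here.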

Additional observations from a re-analysis of the deposited data

How the results depend on the processing

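Every count of genes changed against untreated, in all and per direction, stayed within 1.5 times its value under the other scalings, filters, tools and left-out libraries, with 1 exception, total count scaling, which gave 5469 genes higher against 3497. Leaving out each library in turn gave 5257 to 7572 genes in all, 2484 to 3847 higher and 2734 to 3842 lower. Of 149 named genes under 15 settings, 2209 results were on the same side of the threshold, 20 were no longer called and 6 became called. Among results called in the main or the other setting, 0 changed direction. A change of direction in a gene called in neither was not counted. Most named genes were picked for large differences or small p among called genes, so few could change side. Of all 7013 calls against untreated, DESeq2 kept 83.9%, total count scaling 88.4% and the replicate block 92.6%. Leaving out any 1 of the 4 libraries compared kept a smaller share than DESeq2 did.

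The difference from Dex depended more on the settings. Without a filter on low counts 2085 genes were called and 578 were higher, against 1380 and 296. Leaving out each library in turn gave 514 to 1617 genes, 51 to 502 higher and 459 to 1115 lower, and the lowest values came without a library of Dex plus GW7647. The cause was not tested.

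Same-numbered Dex and Dex plus GW7647 libraries deviated together (a correlation of 0.275), while untreated libraries deviated against the same numbers of Dex plus GW7647 (-0.123) and Dex (-0.426). The labels do not say what a number marks, so the numbers were not taken as pairs. With the replicate block 6531 genes were called against untreated, and 1013 against Dex, of which 153 were higher. With the untreated numbers crossed, the block gave 7784 genes against untreated, and 2219 against Dex with 713 higher.

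With 2 libraries per group the precision rests on a spread pooled over genes and groups, and a library left alone in its group is taken to vary like the others. The smallest difference from untreated that was called was 0.116 on the log2 scale.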

Other observations

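The counts of other gene groups, Dex plus GW7647 against untreated BFU-E, are given beside 25.5% of all genes higher and 25.6% lower. Of 19 measured BCL2 family and death genes, 13 were higher (68.4%) and 4 lower (21.1%), with a median of 0.24. Bcl2l1, which encodes the survival protein BCL-XL, fell by 1.21 on the log2 scale, and Bbc3, the death activator PUMA, fell by 1.35. Of 18 immediate early factors 8 were higher (44.4%) and 7 lower (38.9%). Maff, a small MAF protein, rose 10.1-fold from 142.9 and 144.2 to 1421 and 1477, and Jun fell by 2.01 on the log2 scale.

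Of 19 measured hypoxia response genes 9 were higher (47.4%) and 2 lower (10.5%, and 1 without replicate 1 of Dex plus GW7647). Egln3, an oxygen-sensing prolyl hydroxylase, stood at 302.8 and 311.5 untreated, 2188 and 2116 with both drugs and 2765 and 2846 with Dex (log2 2.81 ± 0.06 over untreated). Of 23 measured autophagy genes 13 were lower (56.5%) and 2 higher (8.7%), or 4 higher under total count scaling. Sqstm1, the autophagy receptor p62, fell from 32310 and 32890 to 11350 and 11110. Ulk1, the kinase that starts autophagy, and Atg14 fell by 1.09 and 1.04.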
